A study of Solanum tuberosum with 6 samples.

Results

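Jasmonates are lipid hormones that plants make from plastid fatty acids after wounding, herbivore attack and abiotic stress, and they set off transcription by releasing JAZ repressors. Lipoxygenase (LOX) oxygenates linolenic acid, allene oxide synthase turns the product into an unstable allene oxide, and allene oxide cyclase (AOC) closes the ring to give OPDA in the plastid. OPDA is moved to the peroxisome, where OPDA reductase (OPR) reduces its ring and OPC-8:0 CoA ligase (OPCL1) activates the product for the rounds of β-oxidation that shorten its side chain to jasmonic acid. The genes described here are 4 of the 114281 in the count table, all labelled as jasmonate steps by the study: 1 AOC gene (Soltu.Atl.02_2G023780), 1 OPR gene (Soltu.Atl.10_2G008210) and 2 OPCL1 genes (Soltu.Atl.12_2G005410 and Soltu.Atl.12_3G004550, called copy 12_2 and copy 12_3 after their identifiers).

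The libraries came from leaves of virus-free tissue culture seedlings of Solanum tuberosum, recorded as wild type and grown on MS medium for 18 days under a 16 h light period. There were 3 libraries for each of 6 groups: the cultivars Atlantic, KY130 and KY140 after 12 h at 25 °C, and the same cultivars after 12 h at -4 °C, named CS-Atlantic, CS-KY130 and CS-KY140 for cold stress. The titles and the treatment protocol give -4 °C while 1 treatment field gives 12 °C, and the lower temperature is used here. The study named the 4 genes from the cold response of Atlantic, which it treats as cold-resistant, and KY140, which it treats as cold-sensitive. The Atlantic and KY140 responses are therefore given as a description, with no test. KY130 took no part in that choice. Which plants, vessels or cold runs the 3 libraries of a group shared was not given, so a p-value measures the spread between these libraries.

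Library totals ran from 11047494 to 14971945 counts, and 45305 to 74628 genes had at least 1 count. CPM is the count scaled to the library total and the TMM factor. Correlations between libraries used log2(CPM + 1) scaled to the library total alone. They ran from 0.837 to 0.945 between libraries of 1 group and from 0.5001 to 0.736 between cultivars. The CS-KY130 replicate 3 library correlated at 0.904 to 0.921 with the untreated KY130 libraries and at 0.869 to 0.900 with the other CS-KY130 libraries. Those others, replicates 1 and 2, correlated at 0.859 with each other and at 0.827 to 0.866 with the untreated KY130 libraries. In KY140, replicate 2 correlated at 0.896 to 0.931 with the CS-KY140 libraries and at 0.853 and 0.911 with its own group, and replicate 1 at 0.853 and 0.837 with its own group, the lowest values between replicates. Many results that use CS-KY130 replicate 3 or KY140 replicates 1 and 2 are also given without them. Correlations within parts of the data, likeness over 18 libraries and ratios of means are not. Leaf marker genes were not checked, since the identifiers carry no gene names. Counts were made against an Atlantic annotation that lists near-identical copies, so a count for 1 copy is uncertain where reads could be split among copies, and the part that this plays in a difference between cultivars was not tested.

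AOC, the ring-closing step, was more abundant in the treated libraries than in the untreated ones of Atlantic and KY140. In Atlantic it stood at 5.67, 8.60 and 10.9 CPM in replicates 1 to 3. In CS-Atlantic it stood at 121, 41.6 and 45.4 CPM, so all 3 treated libraries lay above all 3 untreated ones and replicate 1 was the highest. The means were 8.38 ± 2.61 and 69.4 ± 44.9 CPM (SD, n = 3), an 8.27-fold ratio, and the fitted log2FC was 3.10 (SE 0.45).

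KY140 held more AOC transcript before the cold: 41.0, 32.6 and 43.4 CPM. In CS-KY140 the values were 88.6, 73.7 and 285 CPM. Again no treated library overlapped an untreated one, and replicate 3 lay far above the other two. The means were 39.0 ± 5.70 and 149 ± 118 CPM (SD, n = 3), a 3.82-fold ratio with a log2FC of 1.89 (SE 0.50). With each library left out in turn it ran from 1.04 (without CS-KY140 replicate 3) to 2.25, with 1.96 without KY140 replicate 1 and 1.74 without KY140 replicate 2.

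In KY130, AOC stood at 16.3, 5.01 and 10.6 CPM at 25 °C and at 20.0, 39.3 and 15.1 CPM after cold. The groups overlapped, with CS-KY130 replicate 3 below KY130 replicate 1. The means were 10.6 ± 5.63 and 24.8 ± 12.8 CPM (SD, n = 3) and the log2FC was 1.22 (SE 0.55), which did not pass the test (edgeR quasi-likelihood, adjusted p = 0.471). Leaving out 1 library at a time gave a log2FC of 0.72 (without CS-KY130 replicate 2) to 1.65 (without KY130 replicate 1), with 1.43 (edgeR, adjusted p = 0.259) without CS-KY130 replicate 3, and none passed.

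**Figure D1:**
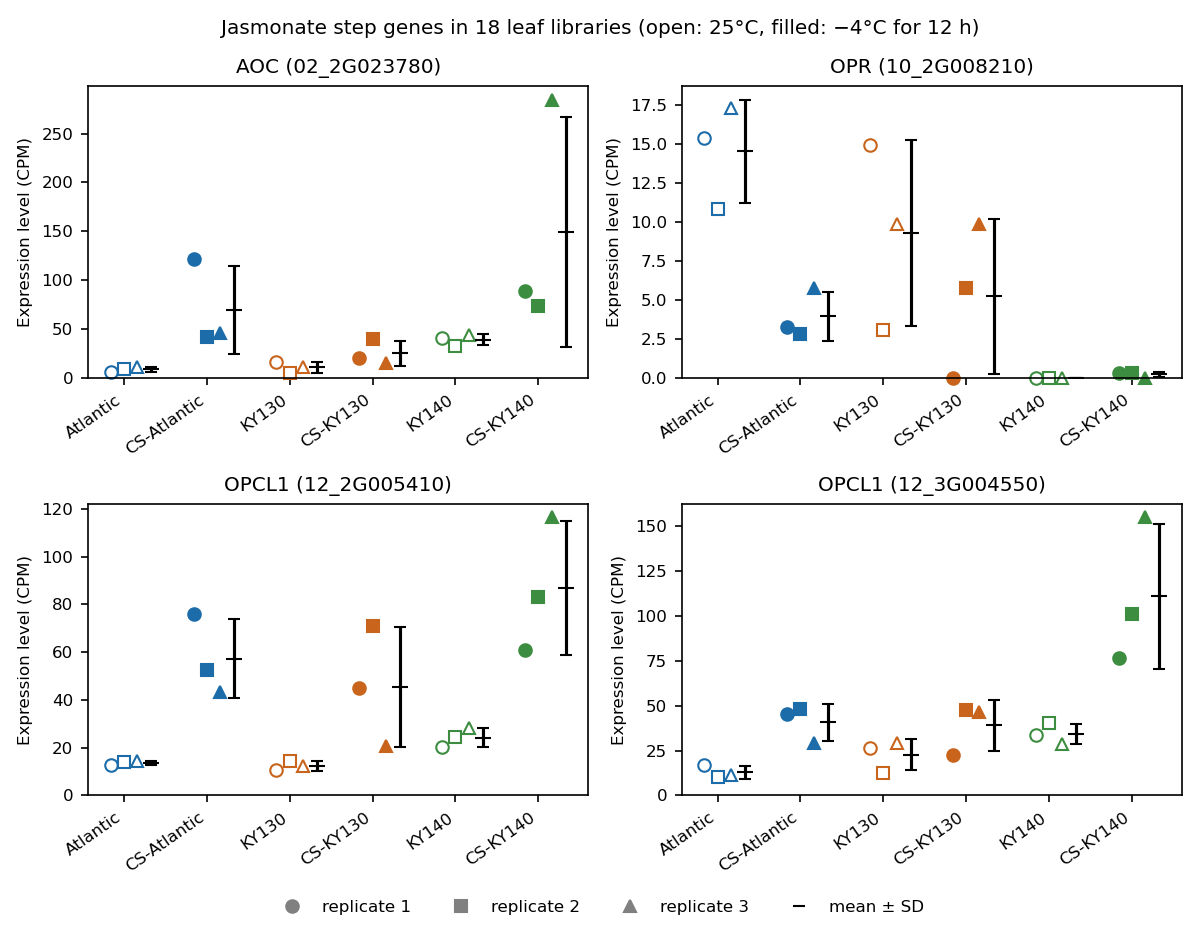
Abundance of AOC, OPR and both OPCL1 copies in all 18 libraries, as CPM with TMM scaling, with open points for 25 °C, filled points for -4 °C and bars for the group mean ± SD (n = 3). AOC and both OPCL1 copies were highest in CS-KY140, while OPR was highest in Atlantic and at 0 in all 3 untreated KY140 libraries.

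The OPR gene described here, labelled by the study as a reductase of this pathway, went the other way in Atlantic. For the OPR genes it called, the study reports changes in both directions in Atlantic and increases in KY140. Other OPR genes were not examined here, and whether this gene acts in the peroxisome was not tested. This OPR gene stood at 15.4, 10.9 and 17.3 CPM at 25 °C and at 3.22, 2.80 and 5.75 CPM in CS-Atlantic. No treated library reached the level of the lowest untreated one. The mean was 14.5 ± 3.32 CPM before and 3.93 ± 1.60 CPM after cold (SD, n = 3), with a log2FC of -1.82 (SE 0.42).

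In KY140 this OPR gene was barely measured. It had no count in any of the 3 untreated libraries and 4, 4 and 0 counts in the CS-KY140 libraries, or 0.317, 0.299 and 0 CPM. A count of 0 allows up to 3 counts, which is 0.235 to 0.265 CPM in the untreated libraries. The gene did not pass the filter on low counts for the KY140 cold comparison, and no change with cold was detectable at this depth.

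KY130 spread widely for OPR. The untreated libraries stood at 14.98, 3.05 and 9.88 CPM and the treated ones at 0, 5.79 and 9.90 CPM. The ranges overlapped almost throughout, and the library with no count was CS-KY130 replicate 1, where 3 counts would be 0.269 CPM. The log2FC was -0.83 (SE 1.28; edgeR, adjusted p = 0.917). Leaving out 1 library at a time gave -1.73 (without CS-KY130 replicate 3; edgeR, adjusted p = 0.659) to -0.24 (without CS-KY130 replicate 1) and -0.31 without KY130 replicate 1, and none passed.

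OPCL1 copy 12_2 carries the study's label for the ligase that feeds β-oxidation, and its activity was not tested. It stood at 12.7, 14.2 and 14.2 CPM in Atlantic and at 75.8, 52.7 and 43.4 CPM in CS-Atlantic. The treated libraries all lay above the untreated ones, with means of 57.3 ± 16.7 and 13.7 ± 0.871 CPM (SD, n = 3) and a log2FC of 2.11 (SE 0.26). In KY140 it stood at 20.1, 24.4 and 28.2 CPM, and in CS-KY140 at 60.8, 83.0 and 117 CPM. These groups were also apart, at 24.2 ± 4.05 and 86.8 ± 28.2 CPM (SD, n = 3), with a log2FC of 1.80 (SE 0.34), which was 1.71 and 1.77 without KY140 replicates 1 and 2 respectively.

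Of the 4 genes, copy 12_2 was the one whose KY130 libraries did not overlap between conditions. The untreated libraries stood at 10.4, 14.4 and 12.3 CPM, and the treated ones at 45.0, 71.0 and 20.7 CPM, the lowest being replicate 3. The means were 12.4 ± 1.98 and 45.6 ± 25.1 CPM (SD, n = 3). The log2FC was 1.87 (SE 0.45), with an unadjusted p of 0.0025 in the edgeR fit and an adjusted p of 0.119, so it did not pass the test.

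That outcome depended on the setting. OPCL1 copy 12_2 passed without CS-KY130 replicate 3, with a log2FC of 2.19 (edgeR, adjusted p = 0.0486). It also passed with DESeq2 (log2FC 1.87, adjusted p = 0.00719), with no filter on low counts (edgeR, adjusted p = 0.00535) and in the joint fit of 18 libraries (edgeR, adjusted p = 0.0284). Over its 12 alternatives the adjusted p ran from 0.00535 to 0.443.

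OPCL1 copy 12_3 stood at 16.9, 10.2 and 11.6 CPM in Atlantic and at 45.5, 48.2 and 29.1 CPM in CS-Atlantic. The groups did not overlap, with means of 12.9 ± 3.55 and 40.9 ± 10.3 CPM (SD, n = 3) and a log2FC of 1.72 (SE 0.29). In KY140 it stood at 33.7, 40.3 and 29.0 CPM, and in CS-KY140 at 76.7, 100.9 and 155 CPM. Here too the groups were apart, at 34.3 ± 5.72 and 111 ± 40.2 CPM (SD, n = 3), with a log2FC of 1.66 (SE 0.33), which was 1.69 and 1.74 without KY140 replicates 1 and 2 respectively.

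In KY130, OPCL1 copy 12_3 stood at 26.6, 12.7 and 29.0 CPM before and at 22.7, 47.8 and 46.7 CPM after cold. The groups overlapped, since CS-KY130 replicate 1 lay below untreated replicates 1 and 3. The means were 22.7 ± 8.79 and 39.1 ± 14.2 CPM (SD, n = 3), and the log2FC of 0.78 (SE 0.43) did not pass the test (edgeR, adjusted p = 0.611). The log2FC ran from 0.49 (without KY130 replicate 2) to 1.06, with 0.58 (edgeR, adjusted p = 0.620) without CS-KY130 replicate 3, and none passed.

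The summed OPCL1 copies of KY130 stood at 37.0, 27.1 and 41.3 CPM at 25 °C and at 67.7, 118.8 and 67.4 CPM after cold, so the sum did not overlap although copy 12_3 did. The mean sums were 35.1 ± 7.29 and 84.6 ± 29.6 CPM (SD, n = 3; two-sided exact permutation test p = 0.1, the smallest that 20 arrangements can give). The difference of 49.5 CPM was 58.1 CPM without CS-KY130 replicate 3 and 32.4 CPM without CS-KY130 replicate 2, the lowest on leaving out 1 library.

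**Figure D2:**
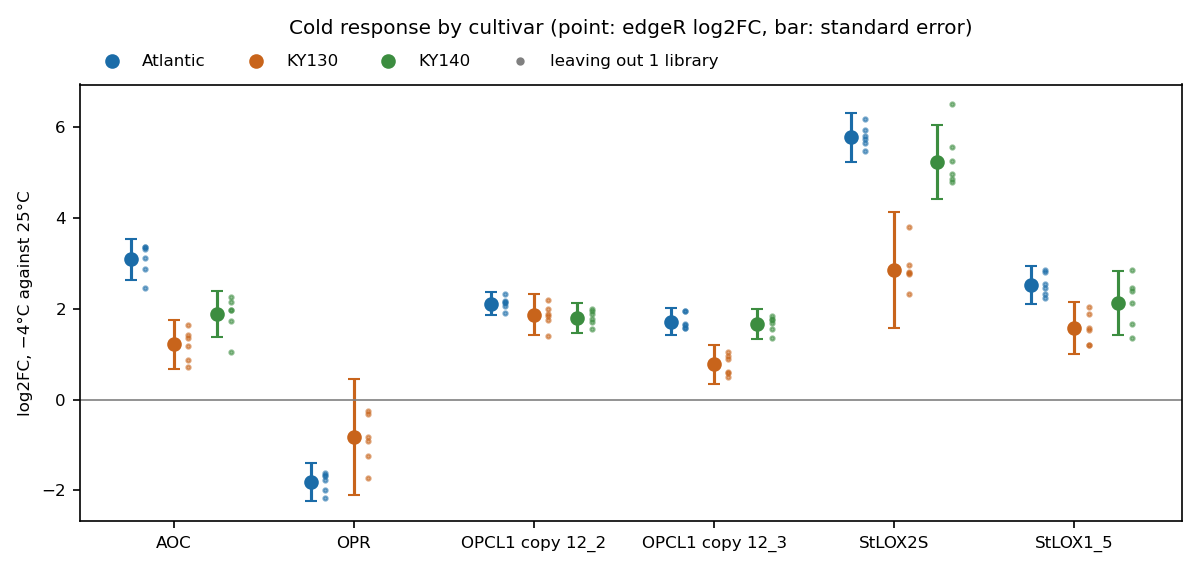
Fitted log2FC of cold against 25 °C for the 4 genes and the lipoxygenase genes StLOX2S and StLOX1_5 in each cultivar, with large points for the edgeR estimate, bars for ± 1 SE and small points for the estimate on leaving out each library. AOC and both OPCL1 copies had positive estimates in all 3 cultivars, OPR had negative ones in Atlantic and KY130, and OPR in KY140 was not fitted.

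Across the 4 genes, Atlantic had 3 whose treated libraries all lay above the untreated ones, where 14.4% of the 57775 genes tested did, and 1 whose treated libraries all lay below, where 16.3% did. KY140 had 3 above, against 13.3% of 47973 genes tested, and 0 below, against 7.51%. Nothing is read from these counts, because those contrasts chose the genes. KY130 had 1 above, against 10.1% of 48717 genes tested, and 0 below, against 10.4%.

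By the call rule of the study, an adjusted p under 0.05 and an absolute log2FC of at least 1, KY130 had 452 genes called among 48717, or 0.928%, of which 411 were higher (0.844%) and 41 lower (0.0842%). None of the 4 genes was among them, 1 had an unadjusted p under 0.05 (copy 12_2) and 1 was called by DESeq2 (copy 12_2). Over all genes tested, 5276 had an unadjusted p under 0.05, DESeq2 called 2084, and the median log2FC was -0.07. On simulated data, with changes in a small number of genes drawn at random, the same fit called 5 of 67 genes changed 4-fold. That rate is not the power for these 4 genes, but the lack of a call does not show the lack of a response.

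The lipoxygenase genes that the study names by identifier are StLOX2S (Soltu.Atl.03_0G008370) and StLOX1_5 (Soltu.Atl.01_4G023960). The study labels LOX1_5 as a lipoxygenase of linoleate, and whether either gene feeds AOC was not tested. Both were picked by the study from these Atlantic and KY140 libraries. StLOX2S was low before the cold, with 2 to 5 counts per library in Atlantic, 1 to 13 in KY130 and 4 to 35 in KY140, and means of 0.271 CPM in Atlantic, 0.532 CPM in KY130 and 1.30 CPM in KY140. After cold its means were 14.8 ± 3.26, 3.93 ± 0.463 and 50.8 ± 24.1 CPM (SD, n = 3). Its ratio of means was 54.6 in Atlantic, 7.39 in KY130 and 39.2 in KY140, each above the ratio of any of the 4 genes in that cultivar, and these ratios rest on the few counts at 25 °C. StLOX1_5 had ratios of 5.58, 3.00 and 4.37 in the same order. In KY130 neither passed the test, with a log2FC of 2.86 (SE 1.28, edgeR adjusted p = 0.471) for StLOX2S and 1.57 (SE 0.57, edgeR adjusted p = 0.334) for StLOX1_5. Their treated KY130 libraries all lay above the untreated ones, which held for 10.1% of the 48717 genes tested. Without CS-KY130 replicate 3 the log2FC was 2.78 (edgeR, adjusted p = 0.352) for StLOX2S and 1.52 (edgeR, adjusted p = 0.301) for StLOX1_5.

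Ordered by group means, AOC ran from CS-KY140 through CS-Atlantic, KY140, CS-KY130 and KY130 down to Atlantic, and each group overlapped the next. Copy 12_2 followed CS-KY140, CS-Atlantic, CS-KY130, KY140, Atlantic and KY130, where the 1 break between neighbours was from KY140 to Atlantic. Copy 12_3 began with CS-KY140, which lay wholly above CS-Atlantic, and the neighbours after it overlapped. OPR followed Atlantic, KY130, CS-KY130, CS-Atlantic, CS-KY140 and KY140, with a break between CS-Atlantic and CS-KY140.

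The levels of the cultivars were compared in 1 edgeR fit of all 18 libraries over 74058 genes. The study screened for genes whose response was larger in Atlantic than in KY140, which favours genes that were high in KY140 or low in Atlantic at 25 °C, or the reverse after cold. The difference between KY140 and Atlantic is therefore a description, with no test. The contrasts with KY130 share the Atlantic or KY140 libraries of that screen, so their p-values are not independent of how the genes were chosen.

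At 25 °C the log2FC of KY140 against Atlantic was 2.22 (SE 0.58) for AOC, 0.82 for OPCL1 copy 12_2 and 1.41 (SE 0.41) for OPCL1 copy 12_3. OPR had 538 counts in Atlantic and 0 in KY140, and with KY140 set to its floor of 3 counts per library its Atlantic level was at least 59.0-fold higher. The median log2FC of all genes was -0.61, and 32.6% of them were called (9.11% higher and 23.5% lower). Without KY140 replicate 1 or 2, AOC stood at 2.14 and 2.30, and copy 12_3 at 1.39 and 1.25.

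After cold the log2FC of CS-KY140 against CS-Atlantic was 1.10 for AOC, 0.60 for OPCL1 copy 12_2 and 1.44 (SE 0.41) for OPCL1 copy 12_3, where 30.0% of all genes were called (10.1% higher and 19.8% lower). The AOC difference depended on single libraries: it ran from 0.21 without CS-KY140 replicate 3 to 1.77 without CS-Atlantic replicate 1. Copy 12_2 ran from 0.31 to 0.85 in the same way, and copy 12_3 from 1.10 to 1.62. OPR had 8 counts in CS-KY140 against 139 in CS-Atlantic.

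KY130 and Atlantic had no call among the 4 genes in either condition, where 22.5% of all genes were called at 25 °C (5.74% higher and 16.7% lower) and 25.3% after cold (7.60% higher and 17.7% lower). At 25 °C the log2FC of KY130 against Atlantic was 0.34 for AOC, -0.64 for OPR, -0.14 for copy 12_2 and 0.82 for copy 12_3 (edgeR, adjusted p from 0.158 to 0.869). After cold AOC had the largest difference of the 4, lower in CS-KY130 by a log2FC of -1.48 (edgeR, adjusted p = 0.0577). With single libraries left out it ran from -2.002 (without CS-KY130 replicate 2) to -0.81 (without CS-Atlantic replicate 1; edgeR, adjusted p = 0.347). It passed in 7 of 24 alternatives, among them DESeq2 (adjusted p = 0.0229) and no filter (edgeR, 0.00858), and leaving out CS-Atlantic replicate 2 (0.0494), KY130 replicate 2 (0.0479), CS-KY130 replicate 2 (0.0339) or CS-KY140 replicate 3 (0.0393). Without CS-KY130 replicate 3 it was -1.24 (edgeR, adjusted p = 0.166), and OPR turned from 0.41 to -0.45 with no call in either fit. Copies 12_2 and 12_3 stood at -0.33 (edgeR, adjusted p = 0.593) and -0.07 (0.945), and at -0.0016 and -0.23 without CS-KY130 replicate 3. At 25 °C none of the 4 genes had an unadjusted edgeR p under 0.05 and DESeq2 called none, while after cold 1 had such a p and DESeq2 called 1, in both cases AOC.

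AOC was called between KY130 and KY140 in both conditions, against KY140 libraries that took part in choosing the genes. KY130 was lower at 25 °C (log2FC -1.87, SE 0.57; edgeR, adjusted p = 0.0135) and after cold (-2.59, SE 0.58; adjusted p = 0.00163), where the log2FC was -1.71 (adjusted p = 0.0244) without CS-KY140 replicate 3. OPR was higher in KY130 in both, with 357 counts against 0 at 25 °C, at least 37.8-fold by the same floor (edgeR, adjusted p = 0.000636), and with 179 counts against 8 after cold (adjusted p = 0.0137). OPCL1 copy 12_3 was lower in CS-KY130 than in CS-KY140 (-1.50, SE 0.41; edgeR, adjusted p = 0.00684) and did not pass at 25 °C (-0.59; adjusted p = 0.247). OPCL1 copy 12_2 passed in neither condition (edgeR, adjusted p = 0.0610 and 0.0703), but it passed at 25 °C with DESeq2 (adjusted p = 0.0246) and with RLE scaling (edgeR, 0.0434), and after cold without CS-KY130 replicate 2 (edgeR, 0.0184). The count was thus 2 of 4 genes at 25 °C, where 40.4% of all genes were called (22.5% higher and 17.9% lower in KY130), and 3 of 4 after cold, where 38.8% were (19.4% higher and 19.4% lower). Of these calls, AOC at 25 °C was lost without KY130 replicate 2 (edgeR, adjusted p = 0.0678), and OPR (0.0516) and copy 12_3 (0.0539) after cold were lost without CS-KY140 replicate 3. All 3 calls after cold held without CS-KY130 replicate 3 (edgeR, adjusted p from 0.0112 to 0.0461), and both calls at 25 °C held without KY140 replicate 1 or 2 (edgeR, adjusted p from 0.00253 to 0.0282).

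The StLOX2S level was lower in CS-KY130 than in CS-KY140 (log2FC -3.69, edgeR adjusted p = 0.000911), where 38.8% of all genes were called (19.4% lower in KY130). The call held in all 24 alternatives. The study picked StLOX2S with the KY140 libraries, so neither the p-value nor the alternatives are independent of that choice. RLE in place of TMM moved the median log2FC of all genes from -0.28 to -0.43 for CS-KY140 against CS-Atlantic and from -0.17 to -0.32 for CS-KY130 against CS-Atlantic, without turning the direction of any of the 4 genes there.

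Whether the steps vary together between libraries of 1 group was asked by taking each library's deviation from its group mean of log2(CPM + 1) and correlating the 4 genes over 18 libraries. The group means, and with them the cold response, drop out of this measure. None of the 6 pairs passed a two-sided exact permutation of libraries within groups after Benjamini-Hochberg adjustment over the 6. The KY140 group at 25 °C adds nothing to the OPR pairs, because OPR was at 0 in all its libraries.

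The highest coefficient was between AOC and OPCL1 copy 12_2, with Pearson's r of 0.58 (exact permutation p = 0.05999, adjusted p = 0.283) and Spearman's rho of 0.55. The deviations had the same sign in 13 of 18 libraries. Without the libraries farthest from the median AOC deviation, CS-Atlantic replicate 1 and CS-KY140 replicate 3, r was 0.35, so the size of the coefficient rested in part on them. Leaving out 1 library at a time gave 0.477 to 0.715.

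AOC and copy 12_3 had r = 0.46 (exact permutation p = 0.141, adjusted p = 0.283; rho 0.38), and 0.27 without the same libraries. OPR and copy 12_3 had r = 0.57 (exact permutation p = 0.110, adjusted p = 0.283; rho 0.39), and 0.32 without CS-KY130 replicates 1 and 3, the libraries farthest out for OPR. All these coefficients were positive, and none passed.

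OPR and copy 12_2 had a negative coefficient, r = -0.39 (exact permutation p = 0.609, adjusted p = 0.797, rho -0.45), and the same sign in 4 of 18 libraries. The untreated KY140 libraries could not share a sign, because their OPR deviation was 0. In CS-KY140 the OPR signs rest on 4, 4 and 0 counts. The coefficient was 0.01 without CS-KY130 replicate 3, -0.52 without CS-KY130 replicates 1 and 3, and -0.74 (exact permutation, adjusted p = 0.111) without CS-KY130 replicate 2. AOC and OPR had r = 0.14 (exact permutation p = 0.664, adjusted p = 0.797; rho 0.09). The OPCL1 copies themselves, which the study labels as the same step, had r = 0.10 (exact permutation p = 0.812, adjusted p = 0.812, rho 0.04), and their deviations had the same sign in 9 of 18 libraries. Without CS-KY130 replicate 3 the copies had r = 0.41, and no pair passed (exact permutation, lowest adjusted p 0.340). Without KY140 replicate 1 or 2 no pair passed either (exact permutation, lowest adjusted p 0.283 and 0.245).

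**Figure D3:**
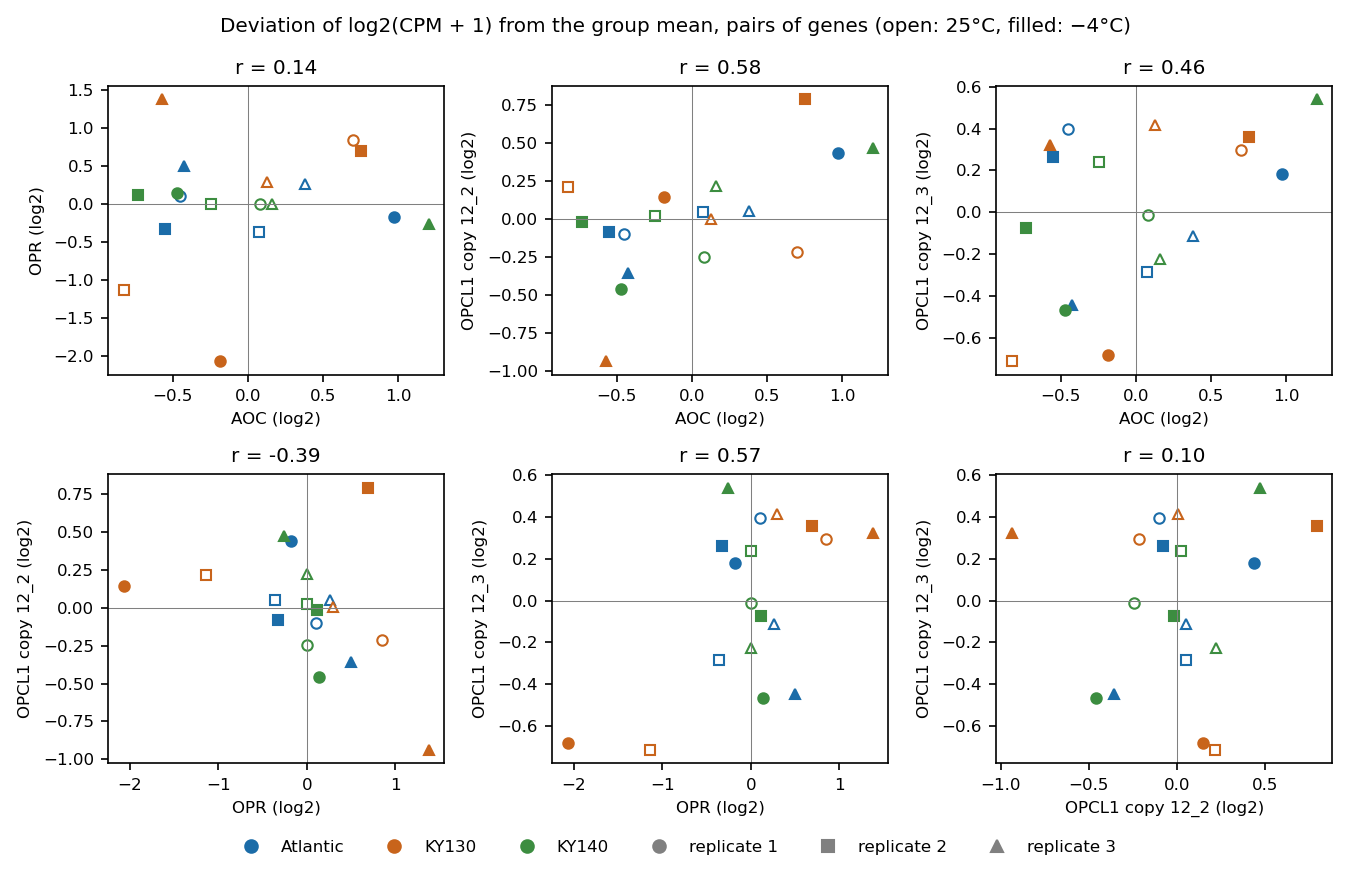
Deviation of each library from its group mean of log2(CPM + 1) for pairs of the 4 genes, with 1 point for each of the 18 libraries, coloured by cultivar, open at 25 °C and filled at -4 °C. AOC and OPCL1 copy 12_2 had r = 0.58, and the 2 OPCL1 copies had r = 0.10.

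Within parts of the data, 27 further coefficients were computed, and the lowest adjusted p was 0.643. For AOC and copy 12_2, r was 0.78 over the 9 treated libraries (rho 0.73, exact permutation p = 0.0278, adjusted p = 0.643) and -0.42 over the 9 untreated ones. By cultivar it was 0.89 in Atlantic, 0.42 in KY130 and 0.72 in KY140, over 6 libraries each. For OPR and copy 12_3, r was 0.92 in KY130 (rho 0.43, exact permutation p = 0.111) and -0.39 in Atlantic.

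The CS-KY140 replicate 3 library was the highest of its group for AOC, both OPCL1 copies, StLOX2S and StLOX1_5. In CS-Atlantic, replicate 1 was highest for AOC, copy 12_2, StLOX2S and StLOX1_5. For copy 12_3 replicate 2 was highest, at 48.2 CPM against 45.5 CPM in replicate 1.

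The number of genes detected (1 count or more), which ran from 50417 to 72029 within CS-KY130 alone, moved with copy 12_3. Over deviations from group means, this number and copy 12_3 had r = 0.61 (rho 0.62, exact permutation p = 0.0121, adjusted over the 4 genes 0.0484), and 0.80 without the libraries farthest from its median. The coefficient was 0.52 for OPR (exact permutation, adjusted p = 0.398), -0.02 for AOC and -0.22 for copy 12_2. The call for copy 12_3 was lost in 13 of 20 alternatives, and r ran from 0.485 to 0.718 on leaving out 1 library at a time. This relation was looked for after the data had been seen, and its part in the results above was not tested.

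The share of copy 12_2 in the counts of both OPCL1 copies does not depend on scaling between libraries. It was 42.9, 58.2 and 55.1% in Atlantic and 62.5, 52.2 and 59.9% in CS-Atlantic. In KY140 it was 37.3, 37.7 and 49.3%, and in CS-KY140 44.2, 45.1 and 42.9%. Over both conditions KY140 lay 12.4 percentage points below Atlantic, in libraries that took part in choosing the genes, so this is a description with no test. Leaving out 1 library at a time gave differences of -14.7 to -10.8 points.

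KY130 held both the lowest and the highest shares of all 18 libraries. Its untreated libraries stood at 28.2, 53.2 and 29.9%, and the treated ones at 66.4, 59.7 and 30.8%. The Wilson 95% intervals were 24.3 to 32.5% for KY130 replicate 1, 47.9 to 58.4% for KY130 replicate 2, 63.0 to 69.7% for CS-KY130 replicate 1 and 27.6 to 34.1% for CS-KY130 replicate 3, and they cover counting error only. Libraries of the same group thus differed by more than counting error, and CS-KY130 replicate 3 sat beside untreated replicates 1 and 3.

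The mean share in KY130 was 37.1 ± 14.0% at 25 °C and 52.3 ± 19.0% after cold (SD, n = 3; exact permutation p = 0.2, where 0.1 is the smallest possible), and the difference of 15.2 points ran from 8.16 points without CS-KY130 replicate 1 to 26.0 points without CS-KY130 replicate 3. The KY130 share did not pass against Atlantic over both conditions, at -10.4 points (two-sided exact permutation within condition, p = 0.16, adjusted over 3 pairs of cultivars 0.24). That difference ran from -14.4 points without KY130 replicate 2 to -5.03 points without CS-KY130 replicate 3. Nor did the share pass against KY140, at 1.94 points (exact permutation p = 0.775). Given with no test, the means before and after cold were 52.0 ± 8.11 and 58.2 ± 5.33% in Atlantic and 41.4 ± 6.81 and 44.1 ± 1.11% in KY140. The KY140 difference of 2.64 points was 0.57 and 0.77 points without KY140 replicates 1 and 2 respectively.

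**Figure D4:**
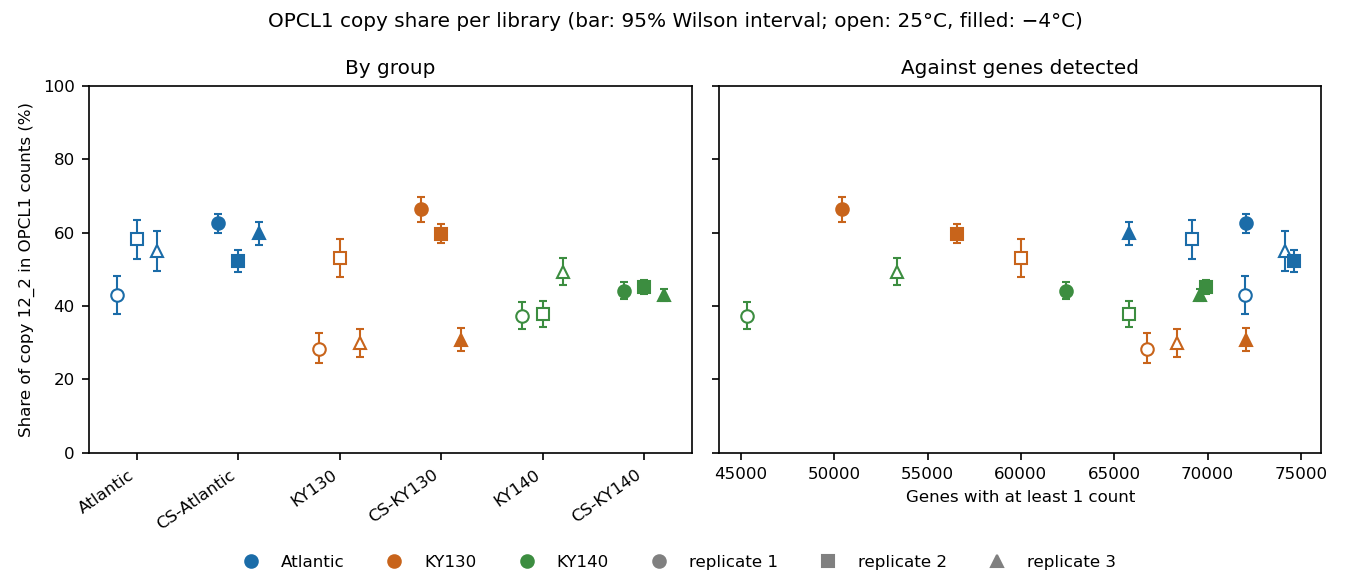
Share of OPCL1 copy 12_2 in the counts of both OPCL1 copies, in percent, for each of the 18 libraries, by group on the left and against the number of genes detected on the right, with open points for 25 °C, filled points for -4 °C and bars for Wilson 95% intervals that cover counting error only. KY130 libraries split between 28.2 to 30.8% and 53.2 to 66.4%, and both conditions were present on either side.

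Over all 18 libraries, where the group means stay in, the pattern of copy 12_2 was among the nearest to AOC, with r = 0.87 of log2(CPM + 1) and rank 27 of 74058 genes. Copy 12_3 followed at r = 0.86 (rank 42) and StLOX2S at 0.85 (rank 50). OPR had negative coefficients with the other 3 genes, from -0.63 to -0.55. These are descriptions, since the genes were named together from their cold response in 12 of these libraries. Once the group means were removed, copy 12_2 ranked 783 for AOC, and 1.06% of genes had a coefficient at least as high.

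The single gene nearest to each over the 18 libraries carried no name in the files. For AOC it was Soltu.Atl.10_0G007970 (r = 0.94), and for OPR it was Soltu.Atl.08_1G011600 (r = 0.97). For copy 12_2 it was Soltu.Atl.07_3G009570 (r = 0.96), and for copy 12_3 Soltu.Atl.10_4G008650 (r = 0.94). The neighbour of OPR shared its low level in KY140, with group means of 0 CPM in KY140 and 0.167 CPM in CS-KY140, against 10.4 CPM in Atlantic and 4.39 CPM in CS-Atlantic.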

How the data were processed

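Messenger RNA was enriched with oligo(dT) beads and made into strand-specific libraries. The authors deposited whole-number read counts per gene and library, with identifiers of an Atlantic annotation and 24264 newly assembled genes. For the aligner, counting tool and genome build: not given in the sources used here. Each of the 6 sample records is 1 group with 3 library columns, which the study's methods call biological replicates. No sequence of the 4 genes was used, and 0 identifiers matched the RefSeq table.

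Counts were scaled by TMM and fitted with edgeR 4.0.16 quasi-likelihood tests in R 4.3.3 (filterByExpr, minimum count 10), with Benjamini-Hochberg adjustment over all genes tested. The cold response was fitted on the 6 libraries of a cultivar, and cultivar differences on all 18. Differences of KY140 from Atlantic were planned as tests and are given as a description, since the study's screen compared the responses of those cultivars. A call needed an adjusted p under 0.05 and an absolute log2FC of at least 1. SEs are the absolute log2FC over the root of F. Correlations and shares used exact permutations over libraries. DESeq2 1.42.0, RLE scaling, other filters, other fits, other pseudocounts and leaving out each library were tried. The fitting script was tested on simulated data with changes put into genes drawn at random. For KY130 cold it called 0 of 67 genes changed 2-fold, 5 of 67 changed 4-fold and 15 of 66 changed 8-fold. In the fit of 18 libraries it called 0 of 67, 1 of 67 and 6 of 66. Far fewer genes were changed in the simulation than were called in the real cultivar contrasts, so its adjustment was stricter. The changed genes were also not matched to the 4 genes in level. These rates therefore do not measure the power for the 4 genes, and a gene that did not pass may still differ.

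The 4 genes, the lipoxygenase genes and the tests were chosen with earlier results of these data known. The genes named are these and, for each of the 4, the gene with the highest Pearson's r over 18 libraries. No set of replicates looked like 1 library deposited again: chi-square per degree of freedom was 14.8 to 56.6. A second deposited table repeats the identifiers and was not used.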

Additional observations from a re-analysis of the deposited data

How the results depend on the processing

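The number of genes called in KY130 after cold depended on the settings: 452 in the fit reported, 2084 with DESeq2, 1695 with no filter, 716 in the joint fit and 134 to 381 on leaving out 1 library. For the cultivar contrasts the total called stayed within 1.5 times under every alternative. The number called higher did not: for KY130 against Atlantic it was 4248 at 25 °C and ran from 2320 (without Atlantic replicate 2) to 7350 (6 libraries only), and after cold it was 5628 and was 3487 (without CS-Atlantic replicate 3). For KY140 against Atlantic it was 6743 at 25 °C and 4168 without Atlantic replicate 2, and after cold 7516 and 4651 without CS-Atlantic replicate 3. Directions turned on leaving out 1 library for small differences. For KY130 against Atlantic at 25 °C the log2FC then ran from -0.10 to 0.67 for AOC, -0.0053 to 1.46 for StLOX2S and -0.32 to 0.54 for StLOX1_5. After cold it ran from -0.45 to 0.99 for OPR and -0.26 to 0.20 for OPCL1 copy 12_3. StLOX1_5 ran from -0.18 to 0.91 for KY140 against Atlantic after cold and from -1.29 to 0.015 for KY130 against KY140 at 25 °C. The within-group r ran from -0.058 to 0.361 for AOC and OPR, -0.737 to 0.0145 for OPR and copy 12_2, and -0.0879 to 0.413 for the OPCL1 copies. The copy share of KY130 less KY140 ran from -2.08 to 7.33 points and that of KY140 less Atlantic from -14.7 to -10.8, and r with the number of genes detected from -0.126 to 0.2004 for AOC and -0.391 to 0.393 for copy 12_2. The cause of these moves was not tested.

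Whether same-numbered libraries of different groups shared anything but the number was not given. Between treated and untreated libraries of a cultivar, deviations from group means correlated at -0.0644 to 0.169 for the same number. For different numbers they correlated at -0.218 to 0.150. With the library number as a replicate block, 378 genes were called in KY130 and copy 12_2 had a log2FC of 1.72 (edgeR, adjusted p = 0.172). The block changed no call among the KY130 cold tests and KY130 cultivar contrasts of the 4 genes. Depth limits what can be said of OPR in KY140, where a group held 0 or 8 counts.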

Other observations

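Among the 6 KY130 libraries, 3 had 60017 or fewer genes detected (KY130 replicate 2 and CS-KY130 replicates 1 and 2) and 3 had 66743 or more (KY130 replicates 1 and 3 and CS-KY130 replicate 3). The former held 53.2, 66.4 and 59.7% of their OPCL1 counts on copy 12_2, and the latter 28.2, 29.9 and 30.8%. OPR stood at 3.05, 0 and 5.79 CPM in the former and at 14.98, 9.88 and 9.90 CPM in the latter. Each set holds both conditions, and the sets were seen in the data, so no test was made. In the 3 untreated KY140 libraries, which had 45305, 65787 and 53368 genes detected, the share was 37.3, 37.7 and 49.3%.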
